A study of Caenorhabditis elegans with 36 samples.

Results

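The fbxb genes are a family of F-box genes of the nematode Caenorhabditis elegans. Every gene whose symbol is fbxb- followed by a number was taken, which gave 104 protein-coding genes of the 46926 genes in the tables. An F-box protein carries a short motif that binds Skp1, and through Skp1 it joins the cullin and RING subunits of an SCF ubiquitin ligase, where it picks the proteins to be tagged with ubiquitin. Caenorhabditis species carry large families of F-box genes, many of them in tandem clusters, among them fbxa, fbxb and fbxc, while a few F-box genes of the worm, such as lin-23, sel-10 and fog-2, have studied roles. No role of a single fbxb gene is given here, and the members are described by level, stage and position.

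Poly(A) RNA was sequenced from whole animals in 8 groups of 3 libraries labelled as biological replicates. N2, the laboratory wild type, and animals labelled xnp-1 were sampled as embryos and as L1 larvae (the first larval stage). Embryos were freed from adults kept at 20 °C with hypochlorite, and L1 larvae were such embryos left in M9 salt buffer for about 11 h. L4 larvae (the last larval stage), raised at 25 °C, came from N2, from each single genotype (xnp-1 or gsox-1) and from the double genotype. xnp-1 is the worm counterpart of the chromatin remodeller ATRX, and the double genotype is written xnp-1;gsox-1. The labels give the genotype without an allele, and the design text calls the embryo and L1 animals a knockdown and the L4 animals mutants, so the names are used here as labels. Nothing more is said of how the replicates were grown, and p-values measure only the spread between these libraries.

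Library totals were 29896459 to 41520291 fragments in embryos and L1 larvae and 39004451 to 45391494 reads at L4, and the tables were fitted apart because they came from different sequencing centres and counting settings. The RNA of xnp-1 stood at 401.1 ± 28 CPM (counts per 1e+06 counts) in N2 embryos and at 131.5 ± 7.72 in those labelled xnp-1 (SD, n = 3 each; log2 change -1.61, adjusted p = 5.98e-05 with edgeR's quasi-likelihood test). At L1 it was 170.4 ± 6.62 against 249.1 ± 33.3 CPM, which did not pass (log2 change -0.55, edgeR adjusted p = 0.135). At L4 it was 46.0 ± 5.73 in xnp-1 and 29.3 ± 7.64 in xnp-1;gsox-1 against 75.5 ± 13.3 CPM in N2 (log2 changes -0.72 and -1.36, edgeR adjusted p = 0.0131 and 0.0124). The RNA of gsox-1 was 78.5 ± 3.54 CPM in L4 larvae labelled gsox-1 and 70.5 ± 24.7 in the double against 56.9 ± 12.7 in N2, so against N2 its level does not check those labels. It was 162.6 ± 14.9 CPM in xnp-1 L4 larvae, above N2 (log2 change 1.51, edgeR adjusted p = 0.000443), and the double was lower than xnp-1 (log2 change -1.21, edgeR adjusted p = 0.00217). Embryo libraries carried the early zygotic list (43 genes first transcribed in the early embryo) at a summed 449.4 to 536.9 CPM in N2. N2 L1 libraries carried it at 277.8 to 440.5 CPM, so its sum separates these stages only narrowly. N2 L4 libraries carried the sperm list of 31 major sperm protein genes at 1166 to 2249 CPM. In embryo and L1 libraries of N2 the sperm list summed to 0.486 to 1.11 CPM.

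Of the 104 fbxb genes, 58 lie on chromosome II, 16 on V, 10 on I, 9 on IV, 8 on III and 3 on X. Most stand next to each other: 76 of them fall into 19 tandem clusters in which neighbours are at most 20 kb apart. Both of the longest runs hold 9 members and lie on chromosome II (WBcel235), from fbxb-43 to fbxb-46 at 1536231 to 1571132 and from fbxb-17 to fbxb-11 at 1676388 to 1725693. All 10 members on chromosome I lie between 13423997 and 14957097. Summed exon length ran from 379 to 2517 bases with a median of 1047.5. By gene span, 10 members overlap a neighbour on the same strand, such as fbxb-16 with fbxb-20 and fbxb-53 with F36H5.10. Reads in exons that such genes share cannot be assigned to 1 gene with certainty. Another 9 overlap a gene on the other strand, among them fbxb-24, fbxb-38, fbxb-100 and fbxb-103. How many of their L4 reads came from that gene was not tested. Reads that mapped equally well to near-identical copies were not counted, so levels of the closest paralogues are lower limits.

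Nearly the whole family was present in wild-type embryos. In N2 embryos 102 of 104 members had a count in every library, and 99 had a mean of at least 1 RPKM (CPM per kilobase of exon), with a median level of 7.39 RPKM over members and quartiles of 4.72 and 13. The top member was fbxb-41 (chromosome II, 1041318 to 1042327), at 46.5 ± 3.31 RPKM (SD, n = 3). It was followed by fbxb-66 at 36.6 ± 3.14, fbxb-88 at 32.6 ± 0.961, fbxb-84 at 31.4 ± 4.3 and fbxb-45 at 30.9 ± 1.39 RPKM. Of these neighbours in rank only fbxb-41 and fbxb-66 were apart by more than their SDs. The top 8 held 25.7% of the family's summed RPKM, so no single gene made up the family's level. fbxb-14 had no count in any of the 24 libraries, and fbxb-58 had none in N2 embryos.

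The family fell as a group between embryo and L1. The summed CPM of the 104 members was 1042, 1133 and 1144 in the N2 embryo libraries and 158.2, 424.1 and 534.9 in the N2 L1 libraries. All 3 L1 libraries lay below all 3 embryo libraries, and the ratio of the group means (1107 ± 56.2 and 372.4 ± 194 CPM) was 2.97. In whole animals, fewer cells that carry an RNA and less of that RNA per cell cannot be told apart. Of 102 members tested, 91 were lower and 1 was higher in L1, against 25.2% of all genes tested that were lower and 34.3% that were higher (edgeR, adjusted p under 0.05). The other 2 members, fbxb-14 and fbxb-58, did not pass the filter on low counts. The median log2 change was -1.80 over the 102 members and 0.10 over all 17687 genes, and 101 of 102 member estimates were below 0. Without a filter, 95 of the 103 members with a count had L1 libraries that lay wholly below the embryo libraries, against 20.8% of all genes with a count, and 1 had them wholly above, against 29.6%.

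**Figure D1:**
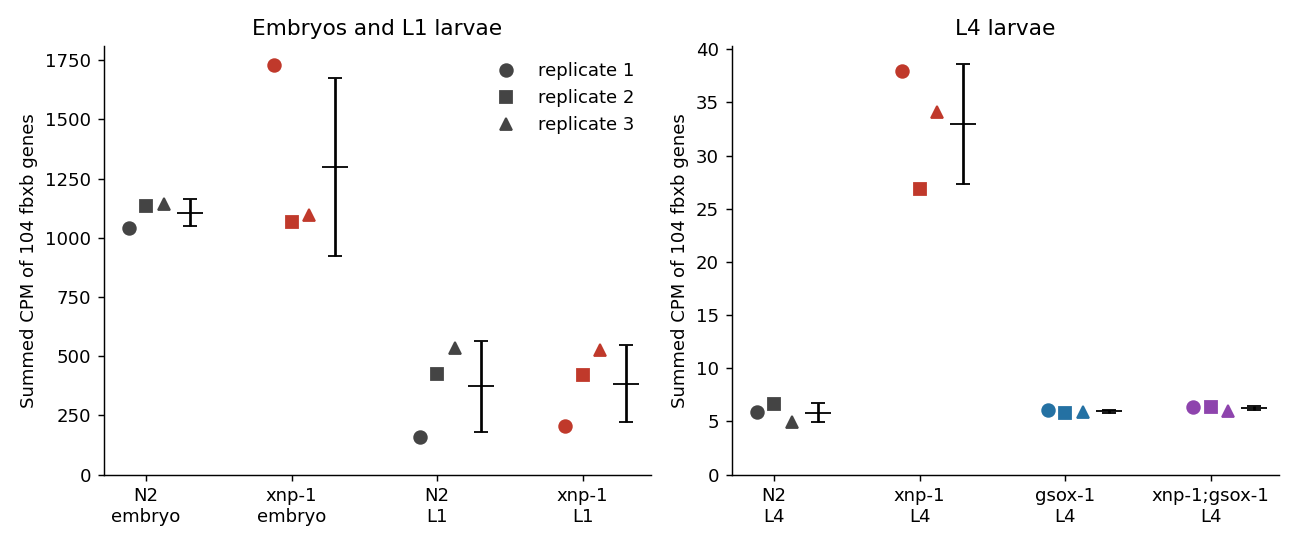
Summed CPM of the 104 fbxb genes in each library (points; circles, squares and triangles are replicates 1, 2 and 3), with the mean and SD of each group in black. Embryo libraries lie between 1042 and 1731 CPM and L1 libraries between 158.2 and 534.9, and at L4, on a separate axis, xnp-1 libraries lie between 26.9 and 38 CPM and all others between 4.93 and 6.66.

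The distribution of changes over members was narrow, with quartiles of -1.95 and -1.45 on the log2 scale. fbxb-81 (chromosome III, 140072 to 141217) had 7.81, 12.04 and 10.6 CPM in N2 embryos and 0.504, 2.52 and 2.25 in N2 L1 larvae. Its L1 libraries were all below its embryo libraries (log2 change -2.52 ± 0.599 SE, edgeR adjusted p = 0.00415). fbxb-71, on the X chromosome (3262900 to 3264206), had 7.83, 10.5 and 10.4 CPM in embryos and 0.326, 2.60 and 2.72 in L1 larvae. This was a log2 change of -2.34 ± 0.554 (SE; edgeR adjusted p = 0.00408). fbxb-119 followed, with a log2 change of -2.29 ± 0.50 (SE; edgeR adjusted p = 0.00262). Log2 changes of fbxb-22, fbxb-6, fbxb-68, fbxb-117, fbxb-34, fbxb-50, fbxb-92, fbxb-96 and fbxb-11 lay between -2.20 and -2.09, each with an edgeR adjusted p under 0.05. The top embryonic member, fbxb-41, had 41.3, 47.3 and 46.2 CPM in embryos and 2.31, 13.1 and 16.6 in L1 larvae (log2 change -2.07 ± 0.582 SE). Its cluster neighbour fbxb-39 was scarce, with 36 counts over the embryo libraries and 2 over the L1 libraries, a ratio of 19.8 with a counting interval of 5.1 to 170.0.

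A small set of members was not called lower. fbxb-53 (chromosome II, 1756882 to 1759452) had 16.9, 16.4 and 19.0 CPM in N2 embryos and 20.5, 26.7 and 23.7 in N2 L1 larvae. All 3 L1 libraries were above the embryo libraries, and it was the 1 member called higher (log2 change 0.44 ± 0.166 SE, edgeR adjusted p = 0.0354). That call did not hold in 8 of 13 other settings, among them without any 1 embryo library and without L1 replicate 2 or 3. fbxb-53 also overlaps F36H5.10 by gene span on the same strand. Per length it moved from rank 56 of 104 in embryos to rank 5 in L1 larvae. fbxb-77 had 15.3, 10.4 and 13.6 CPM in embryos and 8.36, 9.10 and 14.1 in L1 larvae, and its libraries overlapped (log2 change -0.32 ± 0.244 SE, edgeR adjusted p = 0.272). fbxb-85 and fbxb-87 on chromosome III, fbxb-72 on V and fbxb-114 also had log2 changes between -0.53 and -0.28 that did not pass, and the other members not called were fbxb-25, fbxb-29, fbxb-56, fbxb-79 and fbxb-97.

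**Figure D2:**
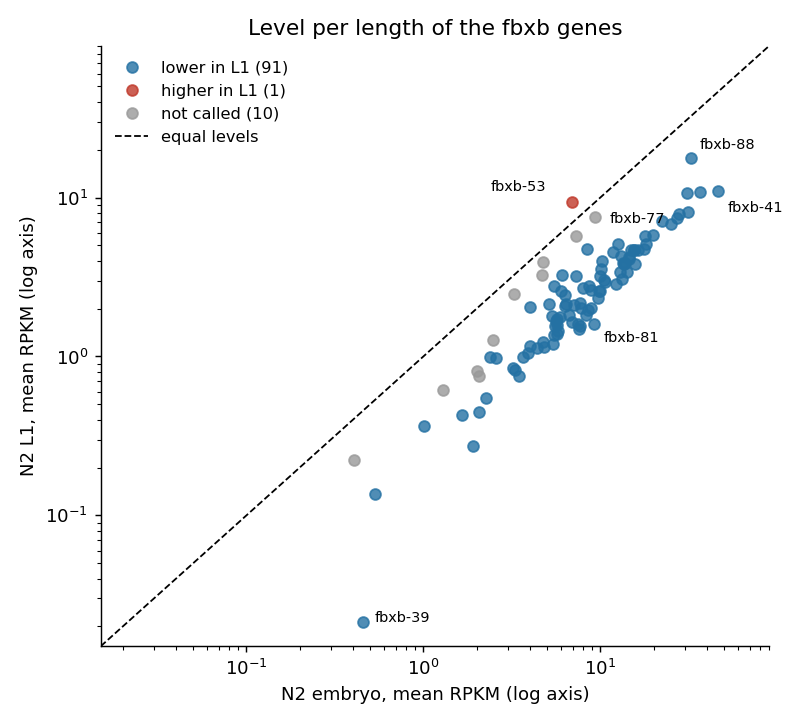
Mean level per length (RPKM, log axes) of each fbxb gene with a count in N2 embryos (x) and N2 L1 larvae (y), coloured by the edgeR call, with equal levels on the dashed line. The 91 members called lower run parallel to and below that line, and fbxb-53 lies above it.

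Of 75 tested members in clusters 70 were called lower in L1, and of 27 tested members that stand alone 21 were, with fbxb-53 the 1 called higher. The median log2 change was -1.80 in clusters and -1.75 in single members, and the difference between them was not tested. By chromosome the median ran from -1.92 on III to -1.43 on X, where only 2 members were tested. Within the cluster from fbxb-43 to fbxb-46, all 9 members were called lower, with log2 changes from -2.12 to -1.29. Of the 9 in the cluster from fbxb-17 to fbxb-11, 8 were called lower.

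The related adaptor families are given beside fbxb over the same interval, in which 34.3% of all genes tested were higher and 25.2% lower. Of the fbxa genes, 143 of 170 were tested, 85 were higher and 11 were lower in N2 L1 larvae, with a median log2 change of 1.46. fbxa-50 had a log2 change of 5.03 ± 0.299 (SE; edgeR adjusted p = 4.16e-07). Of the fbxc genes, 37 of 48 were tested, 7 were higher and 21 were lower, with a median of -0.97. fbxc-58 was among the higher genes (log2 change 5.66 ± 0.301 SE, edgeR adjusted p = 2.34e-07). The bath genes encode MATH-BTB adaptors of another cullin ligase, and of the 35 tested 8 were higher and 12 lower (median -0.24). The families were set side by side and the difference between them was not tested.

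**Figure D3:**
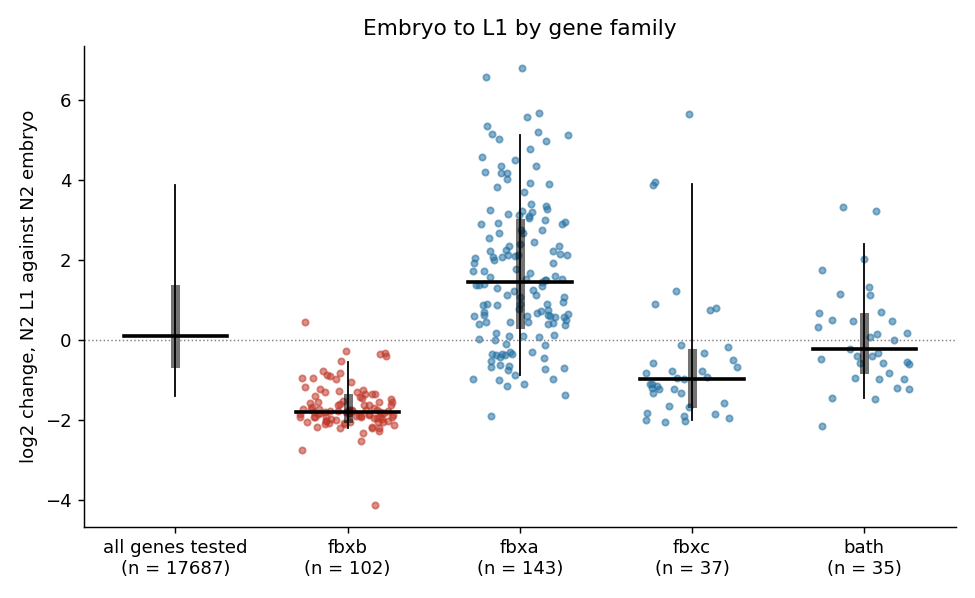
Log2 change from N2 embryo to N2 L1 for all genes tested and for the fbxb, fbxa, fbxc and bath genes that passed the filter (points are genes; the black bar is the median, the thick line spans the quartiles and the thin line the 5th to 95th percentiles). The fbxb points crowd around a median of -1.80, and the fbxa points spread upward around 1.46.

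Most partners of F-box proteins were lower too, beside 25.2% of all genes tested that were lower and 34.3% that were higher. Of 35 tested genes on the list of SCF core subunits and regulators (cul-1, the Rbx1-type RING genes, the skr genes that encode Skp1-related linkers, and factors that load or strip the ubiquitin-like NED-8), 25 were lower and 3 higher in N2 L1 larvae, with a median log2 change of -0.83. The 3 higher genes were the Skp1-related skr-3, skr-4 and skr-5, with log2 changes of 1.22, 3.73 and 3.92. Of 8 F-box genes with a studied role, 6 were lower, among them dre-1, which times larval development (-1.01 ± 0.209 SE, edgeR adjusted p = 0.0019). The early zygotic list, with 36 of 42 tested genes lower and 3 higher, had a median of -1.78. Differentiated tissue genes (muscle, gut, cuticle and neuron) went the other way, with 8 of 9 higher and 1 lower.

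The fall was repeated in animals labelled xnp-1. Summed CPM was 1731, 1065 and 1095 in xnp-1 embryos and 206.7, 420.7 and 526.0 in xnp-1 L1 larvae, a ratio of means of 3.37. Of 102 members tested, 94 were lower and 0 higher, against 27.6% of all genes lower and 35.5% higher (edgeR, adjusted p under 0.05). DESeq2 called 95 lower and 0 higher, and no member with an unadjusted p under 0.05 was higher. Of 103 members with a count, 95 had L1 libraries wholly below the embryo libraries and 1 wholly above, against 20.6% and 32.6% of all genes. The median log2 change was -2.02. fbxb-81 had 18.9, 10.2 and 11.5 CPM in xnp-1 embryos and 0.463, 2.05 and 2.99 in xnp-1 L1 larvae (log2 change -2.87 ± 0.603 SE, edgeR adjusted p = 0.00171). fbxb-24 on chromosome III had 29.7, 17.6 and 17.96 CPM and then 2.12, 4.10 and 4.98 (log2 change -2.54 ± 0.425 SE, edgeR adjusted p = 0.000393). The 8 members not called were fbxb-53, fbxb-64, fbxb-72, fbxb-76, fbxb-77, fbxb-79, fbxb-85 and fbxb-87.

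Single libraries stood apart in the family's level. L1 replicate 1 was the lowest of its group in 96 of 97 members with at least 30 counts in N2, and in 94 of 99 in xnp-1. Its summed CPM was lower than that of the highest L1 library by 3.38 times in N2 and 2.55 times in xnp-1. The same libraries were highest in the differentiated tissue list, at 15770 CPM in N2 (the others 9700 and 7465) and 11900 in xnp-1 (7963 and 7070). They were lowest in the early zygotic list, at 277.8 CPM in N2 (the others 371.6 and 440.5) and 179.3 in xnp-1 (235.4 and 368.4). xnp-1 embryo replicate 1 was the highest of its group in 93 of 101 members. It had 910.8 CPM of early zygotic genes against 478.0 and 495.0 in the other xnp-1 embryos, 416.0 CPM of oocyte and eggshell genes against 213.3 and 213.8, and 2965 CPM of differentiated tissue genes against 4308 and 4180. The part of these lists in the members' levels was not tested. Without L1 replicate 1, 78 members were lower and 1 higher in N2 (median log2 change -1.37) and 86 were lower in xnp-1 (median -1.61).

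**Figure D4:**
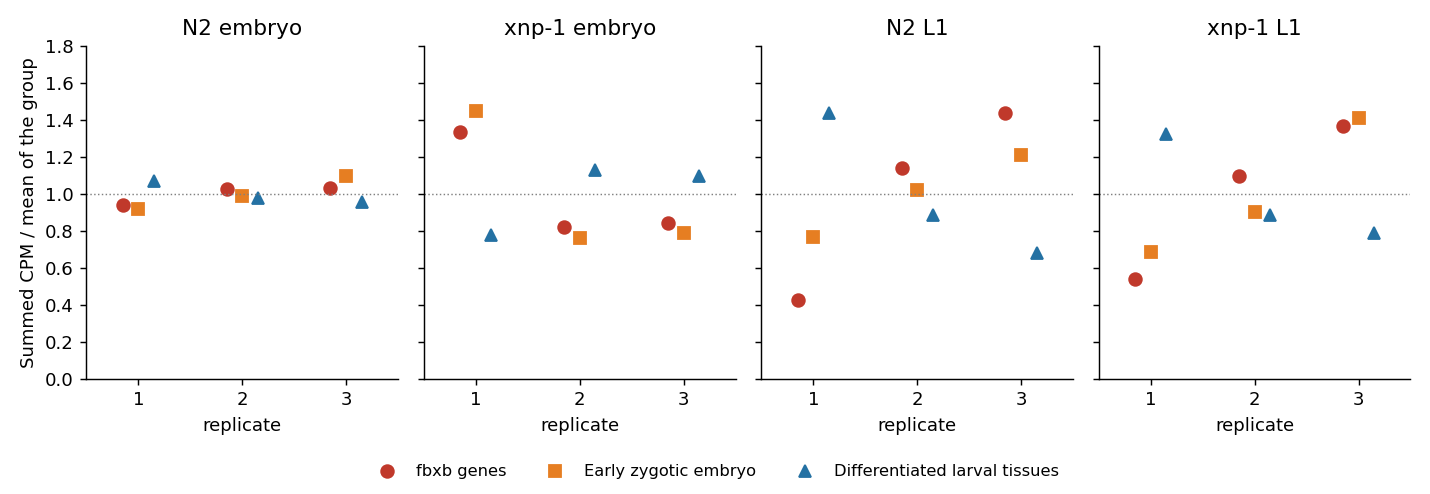
Summed CPM of the fbxb genes, the early zygotic list and the differentiated tissue list in each embryo and L1 library, divided by the mean of its group. The fbxb and early zygotic points lie low and the differentiated tissue points high in both L1 replicate 1 libraries, and the order is the reverse in xnp-1 embryo replicate 1.

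No fbxb gene passed the test between xnp-1 and N2 embryos. Of 102 members tested, 0 were higher and 0 lower, against 0.43% of all genes higher and 0.684% lower (edgeR, adjusted p under 0.05), with 0 members at an unadjusted p under 0.05 and 0 called by DESeq2. The estimates leaned one way, with 92 of 102 above 0 and a median log2 change of 0.25 against 0.03 over all genes, of which 54.1% were above 0. The lean of the median rested on xnp-1 embryo replicate 1. Without it the median was -0.03 and 47 members were above 0. In same-numbered libraries the summed CPM of xnp-1 over N2 was 1.66, 0.94 and 0.957. Numbers did not pair the embryo libraries (correlations of -0.06 to 0.078), so these matches are arbitrary. Of 103 members with a count, 15 had xnp-1 libraries wholly above the N2 libraries, against 6.82% of all genes, and 0 had them wholly below, against 9.93%. Those 15 were picked by that criterion, so all their xnp-1 libraries lie above N2 by definition. fbxb-41 had 57.6, 44.2 and 42.1 CPM in the xnp-1 group beside 41.3, 47.3 and 46.2 in N2 embryos, and the groups overlapped. fbxb-7 had 17.7, 8.71 and 8.13 CPM in the xnp-1 group and 8.15, 7.65 and 7.51 in N2 embryos (log2 change 0.57 ± 0.349 SE, edgeR adjusted p = 0.577), with its top library again replicate 1.

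L1 larvae gave the same count. Of 102 members 0 were higher and 0 lower between xnp-1 and N2, against 0.362% of all genes higher and 0.119% lower (edgeR, adjusted p under 0.05). At an unadjusted p under 0.05 there were 2, the scarce fbxb-29 and fbxb-76, and DESeq2 called 0. Libraries of the groups did not overlap for 2 members higher in xnp-1 and 1 lower, against 5.15% and 4.17% of all genes. The median log2 change was 0.04, and leaving out 1 library at a time moved it between -0.36 and 0.44, so its sign rests on which library is used. Replicate numbers pair these L1 libraries (correlations of 0.505 to 0.785), and each of those fits broke a pair. With the replicate number as a block over all groups, 0 members were called. Same-numbered L1 libraries had ratios of summed CPM of 1.31, 0.992 and 0.983. fbxb-29 had 7, 9 and 10 counts in N2 and 0, 2 and 1 in xnp-1 (edgeR adjusted p = 0.113). The difference between the embryo and L1 effects of xnp-1 was called for 0 members by edgeR and by DESeq2, against 0.0% of all genes in each direction, with 2 at an unadjusted p under 0.05 and a median of -0.22.

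At L4 the family was close to silent in N2. The 104 members together had 236, 273 and 201 counts in the N2 libraries, a summed 5.82 ± 0.867 CPM, and 29, 33 and 32 members had any count. A count at L4 is a read, and both mates of a fragment could be counted: 84.4% of the members' nonzero values were even at L4 against 50.9% in embryos and L1 larvae. No member reached 1 RPKM in N2 L4 larvae, where the top was fbxb-24 at 0.574 RPKM. L4 levels are from another table than embryo and L1 levels and are not compared with them by test.

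In L4 larvae labelled xnp-1 the family's RNA was higher, with a few genes holding 50.9% of its CPM. The median level over members was also higher, at 0.112 RPKM against 0.00666 in N2. The family's summed counts were 1537, 1092 and 1449. Its summed CPM was 38, 26.9 and 34.1, all above the N2 libraries at 5.88, 6.66 and 4.93 (ratio of means 5.67). A count was seen for 96 members over the 3 libraries against 53 in N2. Of the 104 members, 44 had a count in xnp-1 and none in N2, and 1, fbxb-30, the reverse. The like shares of all genes were not counted, so nothing is read from these numbers alone. Only 21 members passed the filter on low counts. Of these, 7 were called higher and 0 lower, against 23.3% of all genes higher and 25.3% lower (edgeR, adjusted p under 0.05). DESeq2 also called 7 higher and 0 lower, and no member was lower at an unadjusted p under 0.05. A scarce gene can pass the filter through the group where it is high, so the 7 are not read as a share of the 21. The count depended on the libraries and the filter: 13 were called without N2 replicate 1 (12 higher and 1 lower), 12 without N2 replicate 2, 11 without N2 replicate 3, and 17 of 101, all higher, with no filter, against 14.1% of all genes. Over all 101 members with an L4 count, 39 had xnp-1 libraries wholly above N2, against 20.3% of all genes with a count, and 0 wholly below, against 21.5%. A group can lie wholly above another only for members with a count in each of its libraries. In N2 replicate 1 only 29 members had a count, so few could lie wholly below N2 and nothing is read from the 0. This limit holds for the library overlaps of all L4 comparisons.

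fbxb-7 (chromosome V, 17377406 to 17379233) was the most abundant member there. It had 20, 25 and 12 counts in the N2 L4 libraries and 411, 310 and 324 in the xnp-1 libraries, or 0.498, 0.610 and 0.294 against 10.2, 7.63 and 7.62 CPM. The groups did not overlap (log2 change 4.17 ± 0.348 SE, edgeR adjusted p = 4.82e-06). It alone made up 25.7% of the family's CPM in xnp-1 L4 larvae, and fbxb-7, fbxb-97, fbxb-67 and fbxb-15 together made up 50.9%.

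fbxb-97 (chromosome II, 1846977 to 1848161) had 2, 8 and 2 counts in N2 and 248, 138 and 189 in xnp-1 (log2 change 5.53 ± 0.923 SE, edgeR adjusted p = 0.000844). fbxb-67 (chromosome I, 14297287 to 14298325) had 0, 4 and 4 counts in N2 and 134, 84 and 86 in xnp-1 (log2 change 5.17 ± 0.981 SE, edgeR adjusted p = 0.0018). Both were well above every N2 library. fbxb-15 (chromosome II, 1652455 to 1653497) had 0, 1 and 0 counts in N2 and 60, 42 and 44 in xnp-1. With 1 count in N2 its ratio of 144.0 has a wide counting interval, from 15 upward (edgeR adjusted p = 0.0031).

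The other members that passed were scarcer, namely fbxb-45, fbxb-103 and fbxb-100. fbxb-45 had 0 counts in N2 and 22, 10 and 12 in xnp-1 (edgeR adjusted p = 0.00756). It was 7.24-fold higher when N2 is set to 6 counts in all, the limit that 3 fragments of paired reads give. The counting error of its xnp-1 counts is not part of that value. fbxb-103 had 0, 0 and 2 counts in N2 and 16 in each xnp-1 library (edgeR adjusted p = 0.00871), and fbxb-100 had 0, 0 and 4 against 14, 10 and 22 (edgeR adjusted p = 0.0322). The call of fbxb-100 was lost in 6 of 13 other settings, among them without N2 replicate 1 or 2 and without any 1 xnp-1 library. fbxb-118, at 4, 0 and 0 counts in N2 and 10, 12 and 18 in xnp-1, missed the threshold (edgeR adjusted p = 0.057) and passed with the replicate number as a block (log2 change 3.37, edgeR adjusted p = 0.0444). Members that were well covered in N2 did not all follow: fbxb-24 had 32, 14 and 20 counts in N2 and 26, 34 and 52 in xnp-1, and fbxb-88 had 28, 23 and 12 against 20, 42 and 10, with overlapping libraries in both.

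**Figure D5:**
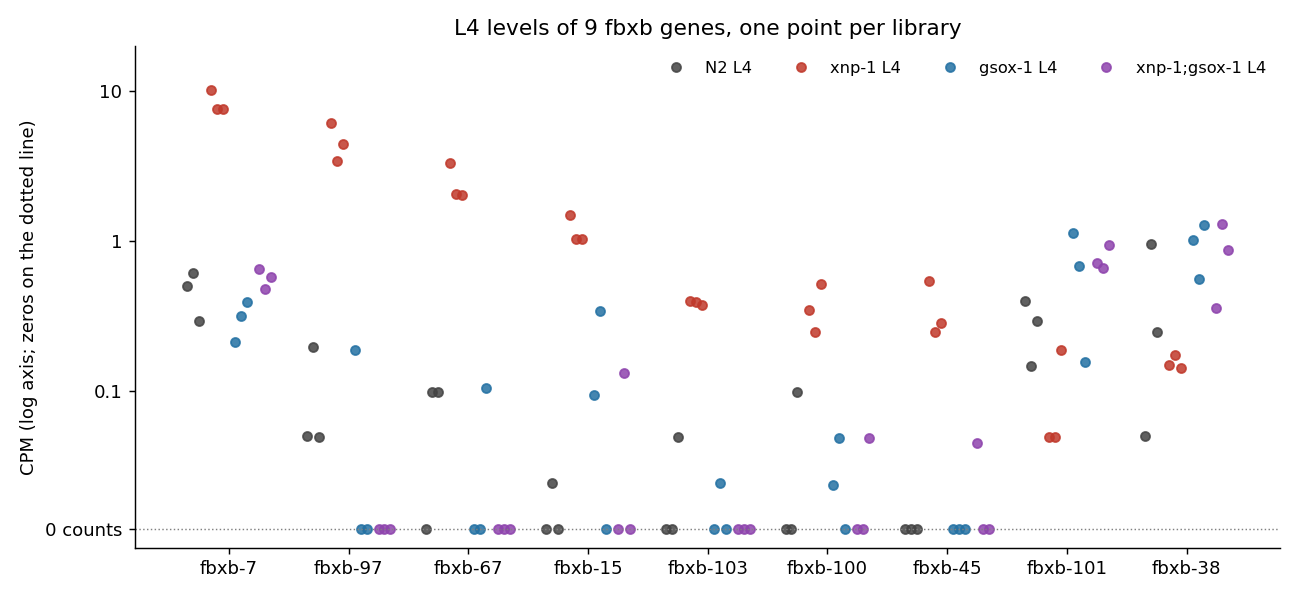
CPM of the 7 fbxb genes called higher in xnp-1 L4 larvae and of fbxb-101 and fbxb-38 in each of the 12 L4 libraries (log axis; libraries with 0 counts lie on the dotted line). The xnp-1 points (red) lie above all others for the first 7 genes, and below all double libraries for fbxb-101 and fbxb-38.

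Some of the 7 raised members held very different ranks per length in embryos and others similar ones. fbxb-7 and fbxb-97, the top pair per length in xnp-1 L4 larvae at 7.91 ± 1.37 and 4.11 ± 1.22 RPKM (SD, n = 3), held ranks 54 and 95 of 104 in N2 embryos, at 7.25 and 2.00 RPKM. fbxb-67 stood at rank 3 at L4 and 75 in embryos. fbxb-15 and fbxb-45, ranks 8 and 5 in embryos, had ranks 4 and 14, while fbxb-103 held ranks 12 and 16 and fbxb-100 ranks 24 and 12 (embryo and xnp-1 L4). The embryonic top member fbxb-41 had 0 counts in N2 L4 larvae and 8, 6 and 12 in xnp-1. The share of a raised gene in its cluster's reads varied. Of 609 counts in the 4-gene cluster of fbxb-97 over the xnp-1 L4 libraries, 575 were from fbxb-97, and 8, 16 and 10 from fbxb-96, fbxb-95 and fbxb-98. Likewise fbxb-67 had 304 of the 355 counts in its cluster of 4, and fbxb-15 had 146 of 180 in its own. Neighbours held about as many reads as the raised gene in the other clusters, where fbxb-45 had 44 of 86 counts (fbxb-41 had 26) and fbxb-100 had 46 of 91.

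Oocyte and yolk genes were higher in the same L4 libraries, while sperm genes went both ways and most tissue genes called were lower. Beside them, 23.3% of all genes tested were higher and 25.3% lower (edgeR, adjusted p under 0.05). All 11 oocyte and eggshell genes were higher in xnp-1 (median log2 change 4.44), with a summed 4693 to 5667 CPM against 121.7 to 321.1 in N2. All 6 vitellogenin genes, which encode yolk proteins, were higher (median 6.23), at 17340 to 30620 CPM against 56.1 to 582.6. Of 43 early zygotic genes 15 were tested, 8 were higher and 1 lower, and their summed level overlapped between xnp-1 (75.5 to 99.7 CPM) and N2 (76.3 to 133.0). Of the 43, med-1 and sdz-23 were at 0 in xnp-1 and 15 were at 0 in N2. Of 30 tested sperm genes 3 were higher (msp-65, log2 change 2.35) and 5 lower (msp-74, -2.75), and their summed level overlapped, at 1443 to 1735 CPM in xnp-1 and 1166 to 2249 in N2. Of 9 differentiated tissue genes 5 were lower, among them the cuticle collagen dpy-7 (log2 change -4.83), the gut esterase ges-1 (-1.36) and the synaptic rab-3 (-1.02), and 1 was higher. The part of these genes' cells or stages in the fbxb levels was not tested. Among relatives, 25 of 34 tested bath genes were higher and 2 lower, and fbxc had 10 higher and 4 lower of 27. The fbxa genes had 36 higher and 32 lower of 137, near the shares of all genes. In the SCF list 21 of 35 were higher and 0 lower (edgeR), among them the Skp1-related skr-7, skr-14 and skr-15, which were at 0 in all 3 N2 libraries and at 10.4 ± 1.16, 4.06 ± 0.319 and 7.21 ± 1.62 CPM in xnp-1 (SD, n = 3). Of F-box genes with a studied role, 7 of 8 were higher and 1 lower, among them fsn-1, which acts at synapses (log2 change 2.39 ± 0.161 SE, edgeR adjusted p = 1.32e-06).

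In gsox-1 larvae the family's level lay within the N2 range, with 260, 239 and 227 counts and 5.94 ± 0.152 CPM. No member was called (0 of 21 by edgeR and by DESeq2, 1 at an unadjusted p under 0.05), against 0.00572% of all genes higher and 0.0172% lower. Without a filter, 0 members had gsox-1 libraries wholly above N2 and 1 wholly below, against 3.75% and 3.83% of all genes. fbxb-7 had 9, 13 and 15 counts and fbxb-97 had 8, 0 and 0.

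In the double xnp-1;gsox-1 the raised members were low again. The family had 284, 291 and 250 counts and 6.25 ± 0.195 CPM, and xnp-1 libraries had 5.28 times that mean. Against xnp-1, 9 members were lower and 2 higher of the 21 tested, beside 21.9% of all genes lower and 22.3% higher (edgeR, adjusted p under 0.05). Several of the 9 passed the filter through the xnp-1 group alone, so this is not read as a share of the 21 either. With no filter, 19 of 101 were lower and 2 higher, beside 13% of all genes in each direction, and without xnp-1 replicate 3, 6 were lower and 1 higher. Of 101 members with a count, 40 had double libraries wholly below xnp-1 and 2 wholly above, beside 19.5% and 18.8% of all genes. A member with 0 counts in any double library could not lie wholly above xnp-1, so the 2 are not read against that share. fbxb-7 had 29, 22 and 24 counts in the double (log2 change -3.89 ± 0.341 SE against xnp-1, edgeR adjusted p = 7.64e-06). fbxb-97 and fbxb-67 had 0 counts in all 3 double libraries (edgeR adjusted p = 0.000247 and 0.0005). With the double set to 6 counts in all, and the xnp-1 counts taken as exact, xnp-1 larvae were 102.0-fold and 54.1-fold higher. fbxb-103 and fbxb-102 were also at 0, with xnp-1 8.54-fold and 8.19-fold higher by the same setting. fbxb-15 had 0, 6 and 0 counts in the double, and fbxb-45, fbxb-100 and fbxb-118 had 2, 2 and 1 over the group. Leaving out 1 library of either group ended the call of fbxb-45 in 4 cases and those of fbxb-100 and fbxb-118 in 3 cases each. All 7 members called higher in xnp-1 against N2 were among the 9, and both comparisons use the same xnp-1 libraries. With the replicate number as a block and only these groups in the fit, fbxb-87 was also lower (log2 change -2.79, edgeR adjusted p = 0.0262).

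The members that were higher in the double than in xnp-1 were fbxb-101 and fbxb-38. fbxb-101 (chromosome I, 14088087 to 14089858) had 32, 30 and 39 counts in the double and 2, 2 and 8 in xnp-1 (log2 change 2.96 ± 0.786 SE, edgeR adjusted p = 0.00962), beside 16, 6 and 12 in N2 and 48, 28 and 6 in gsox-1. fbxb-38 had 16, 59 and 36 counts in the double and 6, 7 and 6 in xnp-1 (log2 change 2.42 ± 0.846 SE, edgeR adjusted p = 0.0357), beside 2, 39 and 10 in N2. Its N2 libraries overlapped with both groups, and its call was lost without double replicate 2 or 3 and without any 1 xnp-1 library.

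Against N2 the double had 0 members called by edgeR (3 at an unadjusted p under 0.05), beside 0.429% of all genes higher and 0.612% lower. DESeq2 called 1, fbxb-97, as lower (log2 change -4.54, adjusted p = 0.041). Double libraries lay wholly above N2 for 3 members and wholly below for 2, beside 4.16% and 6.45% of all genes. Against gsox-1 it had 0 members called by edgeR and DESeq2 (2 at an unadjusted p under 0.05), beside 0.406% higher and 0.246% lower, with 2 members wholly above (6.46% of all genes) and 0 wholly below (7.32%). The oocyte list stood at 96.6 to 243.1 CPM and the yolk list at 7.79 to 21.0 CPM in the double libraries. A test of whether the double differed from the sum of both single effects called 5 members lower and 0 higher, beside 16.1% of all genes lower and 17.2% higher (edgeR, adjusted p under 0.05). DESeq2 also called 5 lower and 0 higher. They were fbxb-7, fbxb-97, fbxb-15, fbxb-67 and fbxb-118. All but fbxb-7 had few counts outside xnp-1 and could pass the filter through that group, so nothing is read from their share. Without gsox-1 replicate 1, 3 were called.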

How the data were processed

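Poly(A) RNA-seq libraries (8 groups of 3) were analysed from 2 tables of raw read counts per gene. Per the file headers, the authors made these counts with featureCounts. Version 2.0.1 was used for embryos and L1 larvae (fragments, strand-specific, minimum overlap of 60 bases). Version 2.0.6 was used for L4, where the mates of a pair were counted as separate reads. The WS280 gene set and a minimum mapping quality of 10 were taken from the L4 header. The submitters' processing notes also name FastQC, Trim Galore, STAR and SAMtools. The 12 columns of the small RNA table were not used here.

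Groups were taken from the sample labels. Each table was fitted with edgeR 4.0.16 in R 4.3.3 (filterByExpr, TMM scaling, robust quasi-likelihood test, all 4 groups of the table), with Benjamini-Hochberg adjustment over all genes tested and a threshold of 0.05. The script was tested on simulated data. CPM used TMM-scaled library sizes, RPKM is CPM per kilobase of exon, and SE is the log2 change over the square root of F. Precision follows depth, given with the results, and intervals (exact, 95%) cover counting error only. At L4, folds against a group at 0 set that group to 6 counts and take the other group's counts as exact. Alternatives were DESeq2 1.42.0, other scalings, no filter, a replicate block, only the groups compared (with and without the block, the former added after seeing the data) and leaving out each library. Members and gene lists were chosen with earlier results of these data known. Up to 12 called members per direction without library overlap were named by change (mean log2 CPM of at least 0 first), with the top 8 by RPKM per group, cluster neighbours and members discussed as uncalled, which were picked after their values were seen.

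Same-numbered libraries were taken as pairs where every correlation of their deviations from the group means was above 0.1. This held for N2 with xnp-1 L1 larvae (0.505 to 0.785) and, at L4, for N2 with xnp-1 (0.151 to 0.236), N2 with the double (0.319 to 0.548) and xnp-1 with the double (0.136 to 0.271).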

Additional observations from a re-analysis of the deposited data

Results flagged for a closer look

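In 5 fbxb genes the effect of xnp-1 at L4 differed between animals with and without the gsox-1 genotype, by edgeR's test of the difference itself. Over all genes tested, 16.1% were called lower and 17.2% higher by it, so such a call is not particular to this family. For fbxb-7 the difference in log2 change was -3.28 ± 0.484 (SE; edgeR adjusted p = 0.000654), and its 3 xnp-1 libraries (310 to 411 counts) lay above all 9 others (9 to 29). fbxb-97 (edgeR adjusted p = 0.00564), fbxb-15 (0.00802) and fbxb-67 (0.0165) rest on groups with few or no counts outside xnp-1, so their fitted sizes are not given. Without gsox-1 replicate 1, fbxb-97 had 0 counts in both gsox-1 and the double and its adjusted p was 1.0, and the same held for fbxb-67 without gsox-1 replicate 3. fbxb-118 (edgeR adjusted p = 0.0452) lost its call in 10 other settings, with adjusted p from 0.0512 to 0.368. The RNA of gsox-1 was not lower than N2 in the libraries labelled gsox-1 or xnp-1;gsox-1, though it was lower in the double than in xnp-1 (log2 change -1.21, edgeR adjusted p = 0.00217). The part of oocyte and yolk genes, which were also high in xnp-1 L4 libraries alone, was not tested.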

How the results depend on the processing

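Leaving out 1 library at a time gave 78 to 94 called members between N2 embryos and L1 larvae and 80 to 95 in xnp-1. At L4 it gave 6 to 13 called members for xnp-1 against N2 (13 without N2 replicate 1), 7 to 14 for the double against xnp-1 (7 without xnp-1 replicate 3, 14 without xnp-1 replicate 2) and 3 to 7 for the interaction (3 without gsox-1 replicate 1, 7 without gsox-1 replicate 2). These fits also changed which scarce members passed the filter. The other comparisons had 0 called members in each of these fits. With no filter on low counts, 17 members were called for xnp-1 against N2 at L4 and 21 for the double against xnp-1. DESeq2 called 1 member for the double against N2. With the replicate number as a block over all groups, 96 and 95 members were called between stages (N2 and xnp-1), 8 for xnp-1 against N2 at L4, 11 for the double against xnp-1, 5 for the interaction and 0 elsewhere. Where numbers pair the libraries, the block changed no call of a named member other than fbxb-118 and fbxb-87, given with the results. Of 644 alternative values for named members, 602 kept their call, 42 lost it and 0 changed sign. Depth limits the L4 results: most members had fewer than 30 counts in a group.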

Other observations

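RefSeq lists 9 fbxb loci as pseudogenes, which are not among the 104 protein-coding members. Of these, 7 were tested between N2 embryos and L1 larvae and all 7 were lower in L1 (edgeR, adjusted p under 0.05). Over all genes tested, 25.2% were lower and 34.3% higher. At L4, fbxb-4 and fbxb-94 were tested between xnp-1 and N2, with log2 changes of 1.24 and -0.02 (edgeR adjusted p = 0.0537 and 0.992).

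At L4, 22 members had counts in the xnp-1 libraries and in no other L4 group. A count in every xnp-1 library and none in N2 was seen for 20. The like shares of all genes were not counted, so nothing is read from these numbers. No L4 count was seen for fbxb-14, fbxb-29 and fbxb-55.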
